A study of Rattus norvegicus with 4 samples.

Results

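The genes that build, load and control the major histocompatibility complex (MHC) of the rat were followed in lumbar dorsal root ganglia (DRGs) after early-life cisplatin. Members were the protein-coding genes whose symbol begins with RT1-, the prefix of the rat MHC, together with Cd74, B2m, Tap1, Tap2, Tapbp, Psmb8, Psmb9, Psmb10, Ciita and Nlrc5. This rule gave 45 of 22293 protein-coding genes, of which 34 were RT1 genes and 40 lay on chromosome 20. Tap2 has 2 entries in the annotation and both were kept. For the description they were divided into class II (12 genes, with Cd74 and Ciita), class I (25 genes, 24 heavy chains and B2m) and class I peptide processing and control (8 genes).

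The libraries came from Wistar rats with the genotype given as WT. Vehicle-treated rats received PBS and cisplatin-treated rats received 0.3 mg/kg cisplatin, and there were 2 libraries per group, each from 1 rat with several lumbar DRGs pooled. Per the methods, injections were given at P14 and P16 and DRGs were taken at P23, whereas the labels place collection 16 days after treatment. Wistar rats are an outbred stock, and neither the RT1 haplotype nor the sex of each rat is given in the sources used here.

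MHC class I molecules are a heavy chain paired with the light chain B2m. They sit on nearly all nucleated cells and show peptides that the proteasome has cut in the cytosol, that the TAP transporter has moved into the endoplasmic reticulum and that tapasin (Tapbp) has helped to load. Class II molecules are pairs of an alpha and a beta chain, held empty by the invariant chain Cd74 until they reach endosomes, and are made mainly by dendritic cells, macrophages and B cells under the control of the coactivator Ciita. In a ganglion such cells lie between the neurons and their glia, so bulk RNA mixes all of them, and a change in the number of cells of a type cannot be told apart from a change in RNA per cell.

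The sequences before the class II genes show the letters through which this shared control is known to work. The X box is bound by the RFX complex and the Y box by NF-Y, and Ciita acts on the factors assembled there. The 150 bases before the start of RT1-Da, RT1-Db1, RT1-Ba and RT1-Bb, the alpha and beta chains of both classical pairs, are printed 5′ to 3′ from RefSeq (GRCr8) on the strand of the gene. Capitals mark the Y box (CTGATTGG, searched on both strands), the core of the X1 box (both strands) and, in RT1-Ba, a cAMP response element (TGACGTCA, both strands).
RT1-Da, chr20:4515265-4515414, plus strand: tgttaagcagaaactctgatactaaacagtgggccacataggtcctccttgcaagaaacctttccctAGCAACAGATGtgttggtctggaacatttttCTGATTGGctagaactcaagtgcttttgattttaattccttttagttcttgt
RT1-Db1, chr20:4560163-4560312, minus strand: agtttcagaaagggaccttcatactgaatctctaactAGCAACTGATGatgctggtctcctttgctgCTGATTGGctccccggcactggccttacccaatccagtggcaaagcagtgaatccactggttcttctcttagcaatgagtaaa
RT1-Ba, chr20:4576907-4577056, plus strand: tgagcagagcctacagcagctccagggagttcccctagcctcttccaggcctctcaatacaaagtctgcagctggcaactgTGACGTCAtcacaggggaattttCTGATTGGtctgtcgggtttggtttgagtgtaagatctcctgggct
RT1-Bb, chr20:4604119-4604268, minus strand: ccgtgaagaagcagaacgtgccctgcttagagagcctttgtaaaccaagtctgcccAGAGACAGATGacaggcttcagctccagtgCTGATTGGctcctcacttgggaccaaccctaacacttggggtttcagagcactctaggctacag

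A promoter was found for 39 of the 44 member symbols, and RT1-CE7, RT1-M2, RT1-DMb, Nlrc5 and Ciita had none in the table. In the 250 bases before the start, the Y box was present in 7 of 9 class II chains, 6 of 22 class I heavy chains and 3.19% of all 33469 promoters. The X1 core was present in 5 of 9 class II chains, 1 of 22 heavy chains and 0.753% of all promoters. Both motifs together occurred in 7 promoters of the whole table (0.0209%), 4 of which belonged to RT1-Da, RT1-Db1, RT1-Db2 and RT1-Bb. In these 4 the X1 core preceded the Y box, with 18 to 20 bases between them. RT1-Ba carried the Y box without an exact match to the X1 core, and near matches were not searched. It was the only class II chain with the cAMP response element, which 1.59% of all promoters held. In these 250 bases the promoter of the invariant chain Cd74 held no exact match to the full Y box or the X1 core. It did hold ATTGG, a part of the Y box, at -189 to -185 from the start on the opposite strand. This part occurred in 34.0% of all promoters. A match is a description of the letters and does not show that a factor was bound in these ganglia.

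Class I promoters were searched for the motifs of interferon and NF-kappaB control. The interferon-stimulated response element (both strands) was present before B2m and before Tap1, Tap2, Tapbp and Psmb10, which were 4 of the 6 processing genes with a promoter. It was present in 3 of 22 heavy chains, 0 of 9 class II chains and 3.41% of all promoters. The NF-kappaB consensus (both strands) was present before B2m, 7 of 22 heavy chains, 2 of 6 processing genes and in 6.33% of all promoters. It was also present before Cd74 and before 1 of 9 class II chains (RT1-Ba), so it was not limited to class I. The 200 bases before B2m and before the classical heavy chain RT1-A2 are shown for these letters. Capitals mark the interferon-stimulated response element (B2m alone), the NF-kappaB consensus and the Y box core (ATTGG, both strands), a part of the Y box that 34.0% of all promoters held.
B2m, chr3:129549130-129549329, plus strand: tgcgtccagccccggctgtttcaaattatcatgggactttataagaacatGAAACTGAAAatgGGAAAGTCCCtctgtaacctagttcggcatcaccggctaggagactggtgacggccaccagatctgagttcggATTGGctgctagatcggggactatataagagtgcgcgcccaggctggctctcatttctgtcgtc
RT1-A2, chr20:4872671-4872870, plus strand: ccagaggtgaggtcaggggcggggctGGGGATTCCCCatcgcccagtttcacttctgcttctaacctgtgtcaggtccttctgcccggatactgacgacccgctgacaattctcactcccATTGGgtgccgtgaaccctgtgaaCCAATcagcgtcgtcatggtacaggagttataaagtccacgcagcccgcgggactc

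**Figure D1:**
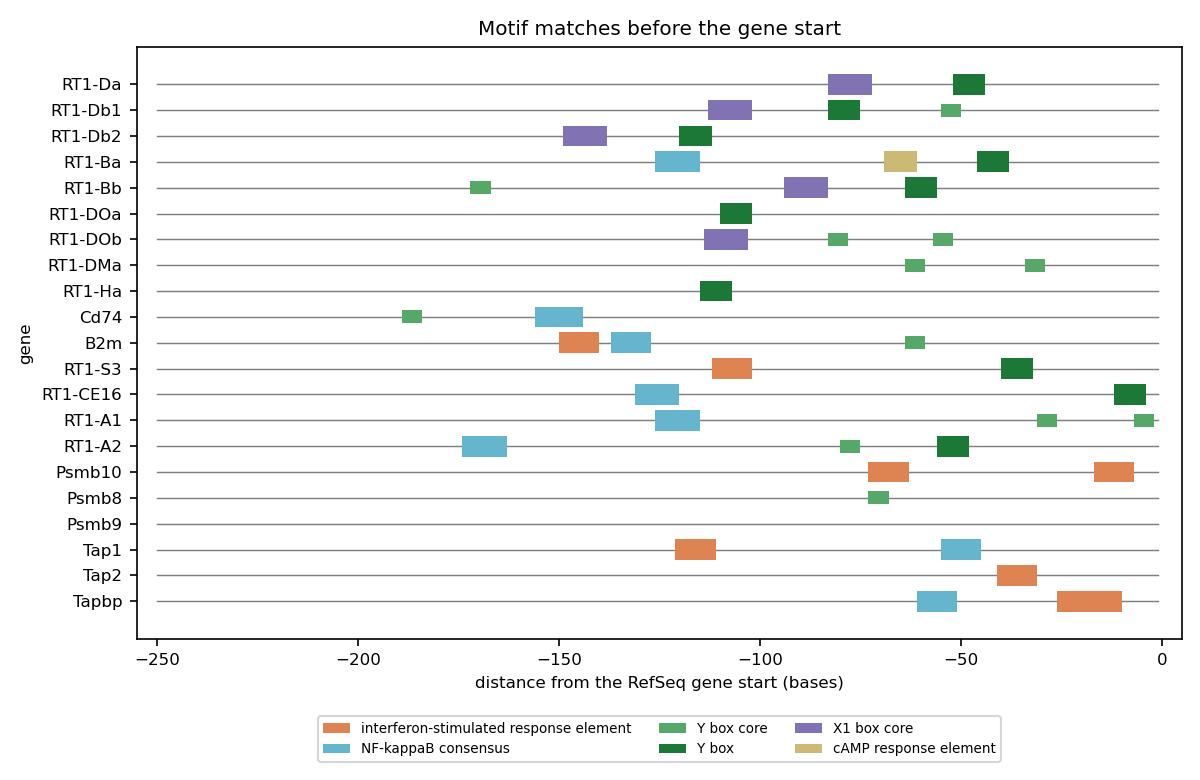
Matches to the motifs in the 250 bases before the RefSeq gene start, with 1 row per gene and distance from the start in bases on the horizontal axis. Colours give the motif. The X1 core and the Y box stand 18 to 20 bases apart in 4 class II genes, and the interferon-stimulated response element appears in B2m and in processing genes but in no class II chain.

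The 4 libraries held 21384801 to 25618417 counts. Levels are given as CPM (counts scaled to library size with TMM factors) for comparisons of 1 gene between libraries, and as the deposited FPKM, which is per gene length, for comparisons between genes. Libraries differed in ways outside the MHC. The 13 mitochondrially encoded genes summed to 13606 and 27354 CPM after vehicle and to 53544 and 50971 CPM after cisplatin. Log2 fold changes ran with gene length, with a Spearman rho of -0.36 across 14719 genes, which are not independent replicates. The part of these differences in the values below was not tested, apart from the gene length offset, which is given beside some of them.

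Of the 45 genes, 42 had a count in some library and 33 passed the filter on low counts, 8 for class II, 17 for class I and 8 for processing and control. RT1-A3, RT1-CE6 and RT1-Ha were at 0 in all 4 libraries, where a count of 0 allows up to 3 counts, or 0.118 to 0.152 CPM. No member was called at an adjusted p under 0.05 and a fold of 1.5, either by edgeR's quasi-likelihood test (0 of 33) or by DESeq2 (0). Over all genes tested edgeR called 0% as higher and 0.00679% as lower, and DESeq2 called 0.35% and 0.63%. At an unadjusted edgeR p under 0.05 there were 3 members higher after cisplatin (B2m, Cd74 and RT1-Da, 9.09% of 33 against a background of 3.7%) and 1 lower (RT1-CE16, 3.03% against 5.73%).

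The direction of the members was uneven. Both cisplatin-treated libraries lay above both vehicle-treated libraries for 10 of 33 members (30.3%, against 20.6% of all genes tested), and both lay below for 4 (12.1%, against 21.2%). Over the 42 members with any count these numbers were 11 (26.2%, background 19%) and 6 (14.3%, background 19.8%). The log2 fold change was above 0 for 23 of 33 members (69.7%, background 49.1%), and for 26 of the 42 with any count (background 48.3%). Its median was 0.35 over the members and -0.01 over all genes tested. With the gene length offset the median of the members was 0.28. The members tested were shorter than all genes tested (median gene length 1827 against 2371), and the part of length in these counts was not tested. RT1 copies share sequence, so the members are not independent of each other. With 2 libraries against 2, the smallest p of an exact permutation test (two-sided) on 1 gene is 0.333, so separation of the groups is given as a description.

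**Figure D2:**
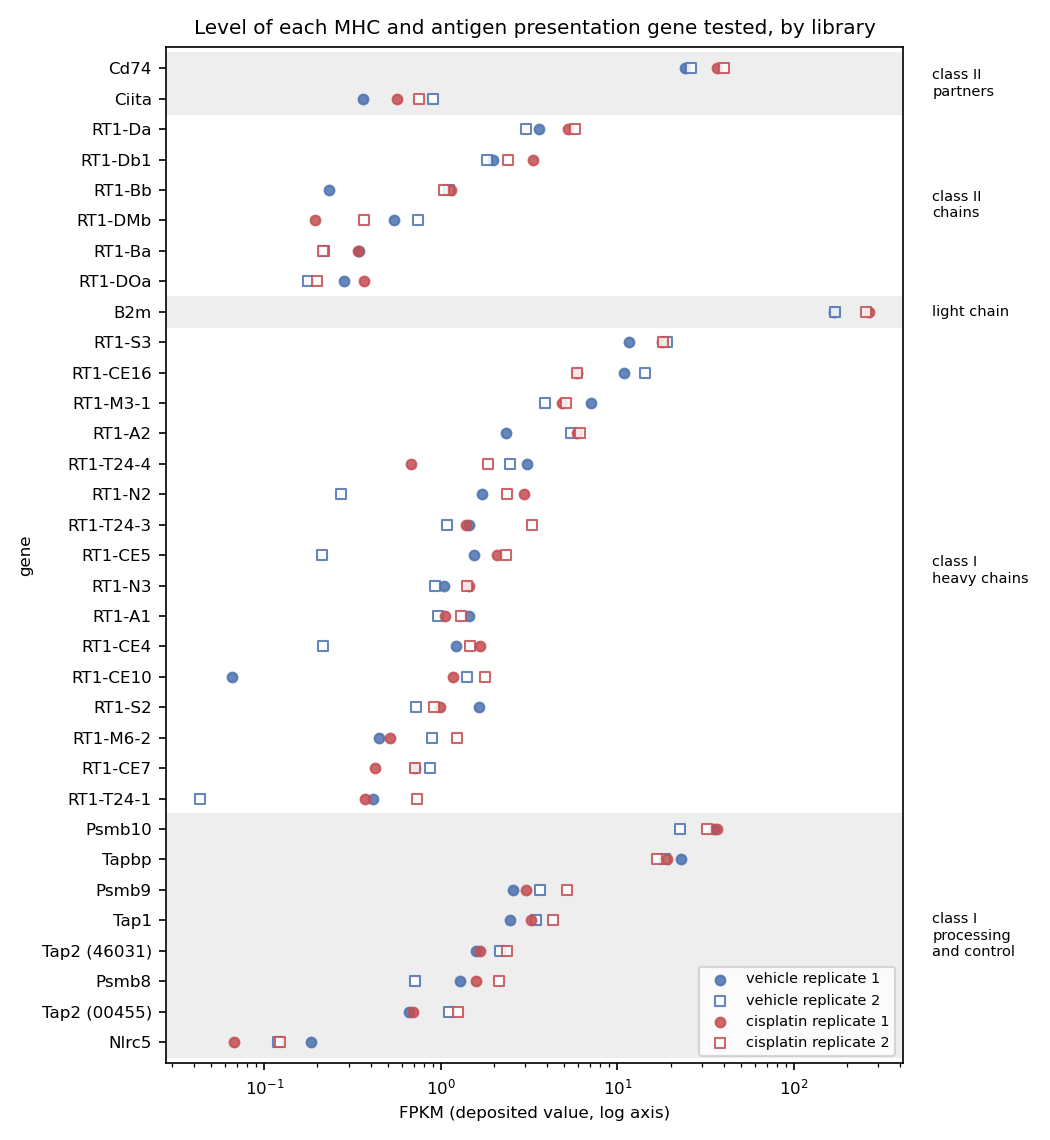
Deposited FPKM of each of the 33 members tested, on a log axis, by library. Blue marks vehicle, red marks cisplatin, filled circles replicate 1 and open squares replicate 2. B2m, Cd74 and Psmb10 are the 3 most abundant members, and the low heavy chains spread most between libraries of the same group.

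Class II began with its most abundant member. Cd74, the invariant chain, was at 34.2 and 37.6 CPM in the vehicle-treated libraries and at 52.3 and 56.8 CPM in the cisplatin-treated libraries. The groups did not overlap, and the gap between them was wider than the spread within either (35.9 ± 2.41 against 54.6 ± 3.16 CPM, SD, n = 2). The log2 fold change was 0.60 ± 0.18 (SE), and the adjusted p was 0.522 by edgeR and 0.358 by DESeq2. Leaving out any single library gave 0.54 to 0.67, and the gene length offset gave 0.47.

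RT1-Da, the alpha chain of the pair that corresponds to human HLA-DR, was at 9.15 and 7.82 CPM after vehicle and at 13.4 and 14.6 CPM after cisplatin. Its groups were also separate. The log2 fold change was 0.72 ± 0.23 (SE), with an adjusted p of 0.522 by edgeR and 0.417 by DESeq2, and it was 0.74 with the length offset. RT1-Db1, the beta chain of the same pair, was at 6.47 and 5.99 CPM after vehicle and at 10.9 and 7.82 CPM after cisplatin. It too was higher in both cisplatin-treated libraries, by a log2 fold change of 0.58 ± 0.28 (SE, edgeR adjusted p = 0.555). Without cisplatin replicate 1 this value was 0.33.

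The second classical pair, RT1-Ba and RT1-Bb, corresponds to human HLA-DQ. RT1-Bb, the beta chain, was at 0.959 and 4.62 CPM after vehicle and at 4.72 and 4.29 CPM after cisplatin. Here 1 vehicle-treated library stood apart and the other lay within the cisplatin range. The log2 fold change of 0.70 ± 0.71 (SE) became -0.02 without vehicle replicate 1 and 2.23 without vehicle replicate 2. RT1-Ba, the alpha chain, had 12 and 6 counts after vehicle and 12 and 7 after cisplatin, with a log2 fold change of -0.04.

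The chains of a pair were not at equal levels per length. The ratio of RT1-Da to RT1-Db1 FPKM was 1.80 and 1.67 after vehicle and 1.58 and 2.39 after cisplatin. The ratio of RT1-Ba to RT1-Bb FPKM was 1.49 in vehicle replicate 1 and 0.196 to 0.297 in the other libraries. The high ratio came from the library in which RT1-Bb was low, and RT1-Ba itself rested on at most 12 counts.

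The nonclassical class II chains work inside the cell. DM removes the remnant of the invariant chain from the groove, and DO restrains DM. RT1-DMb, the DM beta chain, had 33 and 36 counts after vehicle and 12 and 21 after cisplatin, so the groups were separate in the opposite direction from Cd74. Its log2 fold change was -1.20 ± 0.53 (SE, edgeR adjusted p = 0.540), and it ran from -1.72 to -0.80 with any single library left out. RT1-DMa, the DM alpha chain, had 6 and 1 counts after vehicle and 0 and 10 after cisplatin, and was too low to test. RT1-DOa had 6 to 16 counts per library and a log2 fold change of 0.29 ± 0.63 (SE), with overlapping groups.

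Of the class II chains removed by the filter, RT1-DOb had 6 to 9 counts per library, RT1-Db2 had 0 to 3 and RT1-Ha had 0. The coactivator Ciita was at 2.04 and 5.13 CPM after vehicle and at 3.19 and 4.21 CPM after cisplatin. Both cisplatin-treated libraries lay between the vehicle-treated libraries, and its log2 fold change was 0.05 ± 0.52 (SE, edgeR adjusted p = 0.979). Ciita itself did not separate the groups where Cd74, RT1-Da and RT1-Db1 did, and at this spread a difference in Ciita was not detectable.

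Summed over the 10 RT1 class II chains, the level was 19.5 and 21.3 CPM after vehicle and 31.0 and 29.0 CPM after cisplatin, a ratio of means of 1.47. The ratio of Cd74 to this sum was 1.76 and 1.77 after vehicle and 1.69 and 1.96 after cisplatin, and these overlapped. The median log2 fold change over the 8 class II members tested was 0.44. Of the 8, 3 were above and 1 below in both cisplatin-treated libraries, against 20.6% and 21.2% of all genes tested.

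Class I was led by B2m, the light chain that every class I heavy chain shares. B2m was at 313 and 321 CPM after vehicle and at 499 and 478 CPM after cisplatin. The groups were separate by far more than the spread within them (317 ± 5.48 against 488 ± 14.2 CPM, SD, n = 2). The log2 fold change was 0.62 ± 0.22 (SE), with an adjusted p of 0.522 by edgeR and 0.237 by DESeq2. It stayed between 0.60 and 0.65 with any single library left out, the narrowest such range among the 33 members tested, and was 0.55 with the length offset.

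The heavy chains together differed by less than B2m, with both cisplatin-treated sums above both vehicle-treated sums. Their sum over 24 genes was 81.1 and 87.2 CPM after vehicle and 90.3 and 98.6 CPM after cisplatin, a ratio of means of 1.12 (84.1 ± 4.33 against 94.5 ± 5.85 CPM, SD, n = 2). The ratio of B2m to that sum was 3.86 and 3.68 after vehicle and 5.52 and 4.85 after cisplatin, so both cisplatin-treated libraries lay above. It was not tested, since it is a score over chosen members. Over the 17 class I members tested the median log2 fold change was 0.53, and it was 0.21 without cisplatin replicate 2. Of the 17, 6 were above and 3 below in both cisplatin-treated libraries, against 20.6% and 21.2% of all genes tested.

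**Figure D3:**
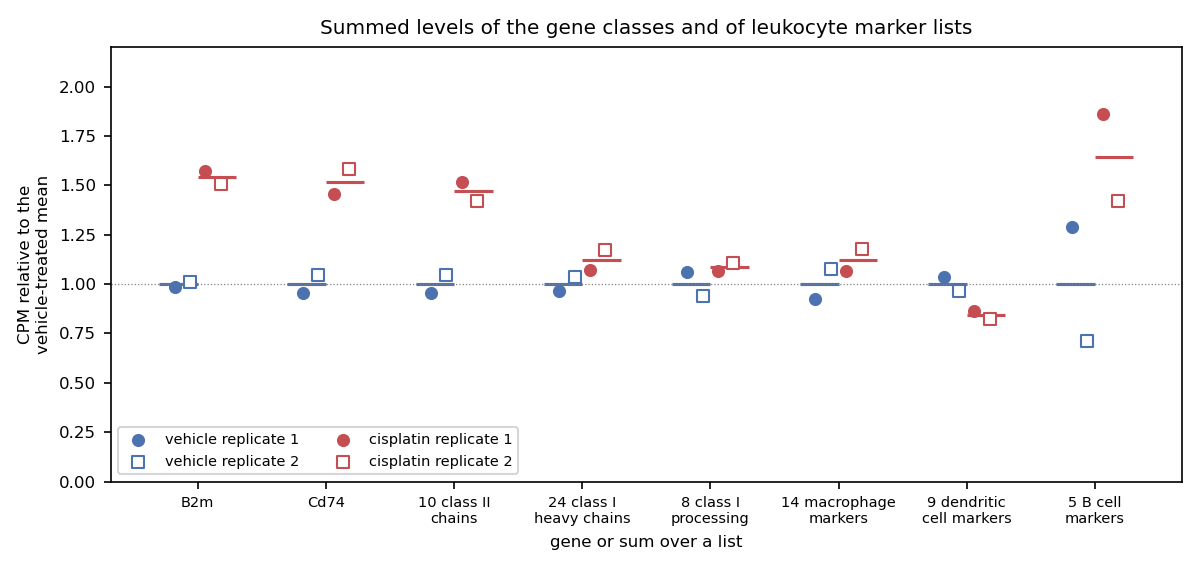
CPM of single genes and of summed gene classes and leukocyte marker lists in each library, relative to the mean of the vehicle-treated libraries (1 on the vertical axis), with lines at the group means. B2m, Cd74 and the class II sum lie well above 1 in both cisplatin-treated libraries, while the heavy chain sum stays closer to it.

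Single heavy chains differed in both directions. RT1-S3, a nonclassical chain with the highest FPKM of the heavy chains (16.7 on average), was at 20.9 and 35.0 CPM after vehicle and at 32.2 and 32.6 CPM after cisplatin. The vehicle-treated libraries enclosed the cisplatin-treated ones, and the log2 fold change was 0.22 ± 0.29 (SE). The next most abundant, RT1-CE16, was at 12.1 and 16.1 CPM after vehicle and at 6.57 and 6.55 CPM after cisplatin. This was the only heavy chain with an unadjusted edgeR p under 0.05, with a log2 fold change of -1.10 ± 0.25 (SE) and an adjusted p of 0.522 by edgeR and 0.108 by DESeq2. The value ran from -1.28 to -0.88 with any single library left out and was -1.29 with the length offset.

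The classical heavy chain genes carry the symbol RT1-A. RT1-A2 was at 3.99 and 9.45 CPM after vehicle and at 10.1 and 10.5 CPM after cisplatin. The cisplatin-treated libraries lay above, but vehicle replicate 2 was close to them, and the log2 fold change of 0.62 ± 0.43 (SE) became 0.13 without vehicle replicate 1. RT1-A1 was at 3.99 and 2.69 CPM after vehicle and at 2.95 and 3.61 CPM after cisplatin, with a log2 fold change of -0.03. RT1-A3 had no count.

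RT1-CE4 and RT1-CE5 were low in the same vehicle-treated library. RT1-CE4 was at 5.71 and 1.02 CPM after vehicle and at 7.79 and 6.80 CPM after cisplatin. RT1-CE5 was at 2.92 and 0.406 CPM after vehicle and at 3.94 and 4.42 CPM after cisplatin. RT1-N2, a nonclassical chain without the RT1-CE prefix, had the same shape, at 3.48 and 0.559 CPM after vehicle and at 6.06 and 4.85 CPM after cisplatin. For these 3 genes the log2 fold change was 1.10, 1.31 and 1.41 with all libraries, and 0.35, 0.52 and 0.65 without vehicle replicate 2.

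RT1-CE10 had the reverse pattern among vehicle-treated libraries. It was at 0.120 CPM (3 counts) in vehicle replicate 1, at 2.59 CPM in vehicle replicate 2, and at 2.13 and 3.23 CPM after cisplatin. Its log2 fold change of 1.01 ± 1.11 (SE) became 0.06 without vehicle replicate 1, so 1 library carried the value. RT1-T24-1 had 12 and 1 counts after vehicle and 11 and 20 after cisplatin, with overlapping groups.

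The highest library exceeded the lowest by more than 4-fold for 7 of 33 members (21.2%), against 6.33% of all genes tested. These were 6 of 16 heavy chains (37.5%), namely RT1-N2, RT1-CE4, RT1-CE5, RT1-CE10, RT1-T24-1 and RT1-T24-4, and 1 of 8 class II members, RT1-Bb. None of the 8 processing genes was among them. Low counts widen this ratio, and the lowest library held 1 to 29 counts for these 7 genes.

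Of the 8 genes whose symbol begins with RT1-CE, 7 had counts. By the deposited coordinates RT1-CE10 and RT1-CE16 lie apart from the other genes of this prefix on chromosome 20. Summed, the 8 genes were at 23.2 and 22.5 CPM after vehicle and at 21.6 and 22.99 CPM after cisplatin, a ratio of means of 0.976. Within that sum RT1-CE16 was lower after cisplatin while RT1-CE4 and RT1-CE5 were higher. RT1 copies share long stretches of sequence, and the sources used here do not say how reads that match several copies, or overlapping genes, were counted. Values for single heavy chains are therefore uncertain as to which copy the reads came from, and the part of this in the differences between copies was not tested.

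**Figure D4:**
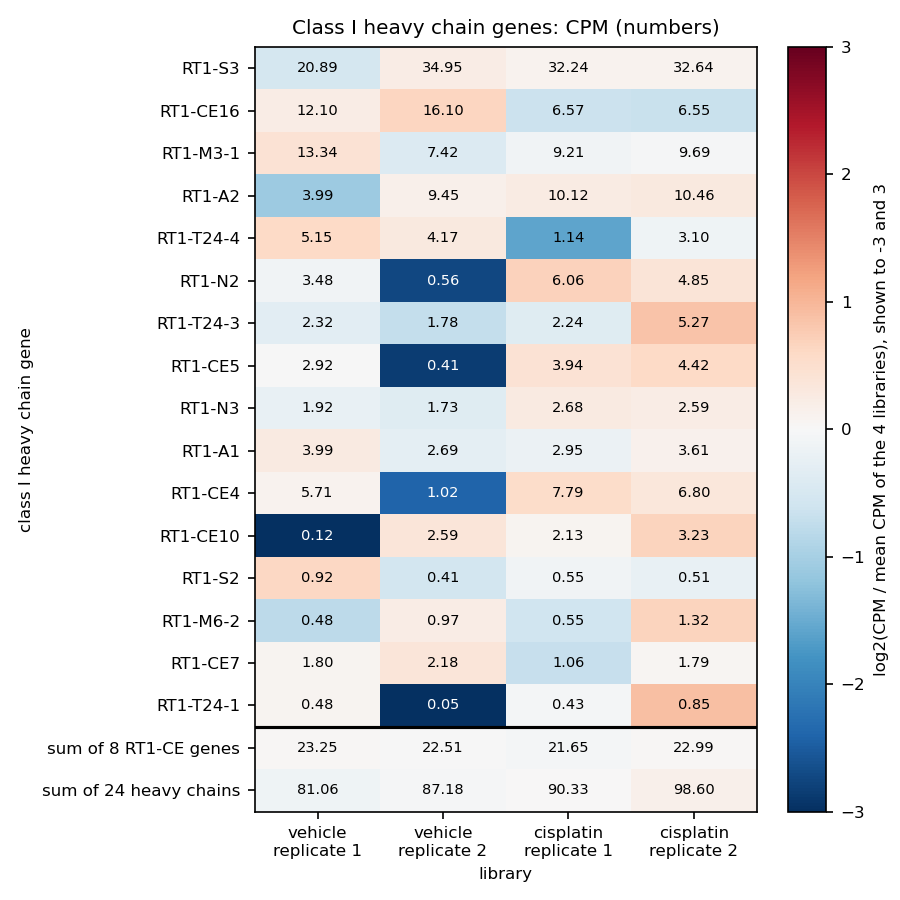
CPM (numbers) of the class I heavy chain genes in each library, coloured by log2(CPM / mean CPM of the 4 libraries), with the sums over genes set off by a line. Single copies differ in colour between libraries of the same group, while the sums are nearly uniform.

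The annotation adds to this uncertainty. Overlap was searched among the 40 members on chromosome 20 alone. By the coordinates deposited with the counts (Rnor_6.0), 20 of these overlapped another gene and 14 overlapped another member. RT1-CE16 (chromosome 20, 3791407 to 3794027, minus strand) overlapped RT1-A3, which had 0 counts. RT1-CE4 (chromosome 20, 4673658 to 4935887, minus strand) spanned RT1-CE5, RT1-CE7 and also Ddx39b, a gene with 16745 counts. RT1-N3, RT1-S3 and RT1-T24-4 lay opposite the antisense gene Rn60_20_0032.5, with 991 counts. RT1-Da did not overlap another gene. B2m (chromosome 3, 114087287 to 114093309) and Cd74 lie on other chromosomes and were not searched for overlap.

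The remaining heavy chains had no common direction. RT1-N3 was at 1.92 and 1.73 CPM after vehicle and at 2.68 and 2.59 CPM after cisplatin, with a log2 fold change of 0.53 ± 0.36 (SE) and separate groups. RT1-T24-4 was at 5.15 and 4.17 CPM after vehicle and at 1.14 and 3.10 CPM after cisplatin, lower in both, with -1.14 ± 0.54 (SE, edgeR adjusted p = 0.554) and -0.58 without cisplatin replicate 1. RT1-CE7 was also lower in both, with -0.48 ± 0.46 (SE). RT1-M3-1, whose mouse counterpart presents formylated peptides, was at 13.3 and 7.42 CPM after vehicle and at 9.21 and 9.69 CPM after cisplatin, and its groups overlapped. The groups also overlapped for RT1-T24-3 (0.87), RT1-S2 (-0.34) and RT1-M6-2 (0.38 on the log2 scale). The 8 heavy chains removed by the filter, RT1-T24-2, RT1-M6-1, RT1-CE2, RT1-CE3, RT1-M2, RT1-M5, RT1-A3 and RT1-CE6, had at most 12 counts in any library.

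The immunoproteasome exchanges the catalytic subunits Psmb5, Psmb6 and Psmb7 for Psmb8, Psmb9 and Psmb10 in immune cells and under interferon. Psmb8 was at 2.72 and 1.52 CPM after vehicle and at 3.35 and 4.51 CPM after cisplatin. It was the only processing gene with separate groups, with a log2 fold change of 0.88 ± 0.43 (SE, edgeR adjusted p = 0.562) that ran from 0.53 to 1.37 with any single library left out. Psmb9 was at 3.95 and 5.74 CPM after vehicle and at 4.72 and 8.08 CPM after cisplatin, and Psmb10 was at 35.7 and 23.3 CPM after vehicle and at 37.3 and 32.5 CPM after cisplatin. Both overlapped between the groups.

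The constitutive subunits lay above in both cisplatin-treated libraries too. Psmb6 was at 113 and 115 CPM after vehicle and at 176 and 168 CPM after cisplatin, with a log2 fold change of 0.60 ± 0.18 (SE, edgeR adjusted p = 0.522). The gene length offset lowered this value to 0.33, that of Psmb5 from 0.30 to 0.07 and that of Psmb7 from 0.22 to 0.13. Per length, the ratio of Psmb8 to Psmb5 FPKM was 0.00787 and 0.00490 after vehicle and 0.00824 and 0.0111 after cisplatin, with vehicle replicate 1 close to cisplatin replicate 1. The ratio of Psmb9 to Psmb6 FPKM was 0.0165 and 0.0236 after vehicle and 0.0126 and 0.0227 after cisplatin. The ratio of Psmb10 to Psmb7 FPKM was 0.404 and 0.312 after vehicle and 0.382 and 0.352 after cisplatin. These last ratios overlapped between the groups.

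Transport and loading genes did not separate the groups. Tap1, a subunit of the peptide transporter, was at 10.3 and 14.8 CPM after vehicle and at 13.8 and 18.2 CPM after cisplatin, with a log2 fold change of 0.35 ± 0.28 (SE). Its partner Tap2 summed over both entries to 6.07 and 8.94 CPM after vehicle and to 6.42 and 9.73 CPM after cisplatin. Tapbp was at 36.4 and 30.02 CPM after vehicle and at 30.5 and 26.6 CPM after cisplatin, with -0.22 ± 0.21 (SE). Nlrc5, the coactivator of class I genes, had 27 and 14 counts after vehicle and 10 and 17 after cisplatin, with a log2 fold change of -0.69 ± 0.57 (SE). The 8 processing and control genes summed to 96.3 and 85.04 CPM after vehicle and to 96.5 and 100.3 CPM after cisplatin, and their median log2 fold change was 0.19. The median had no stable sign, at -0.08 without cisplatin replicate 2, 0.03 without vehicle replicate 1, 0.44 without vehicle replicate 2 and 0.42 without cisplatin replicate 1.

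**Figure D5:**
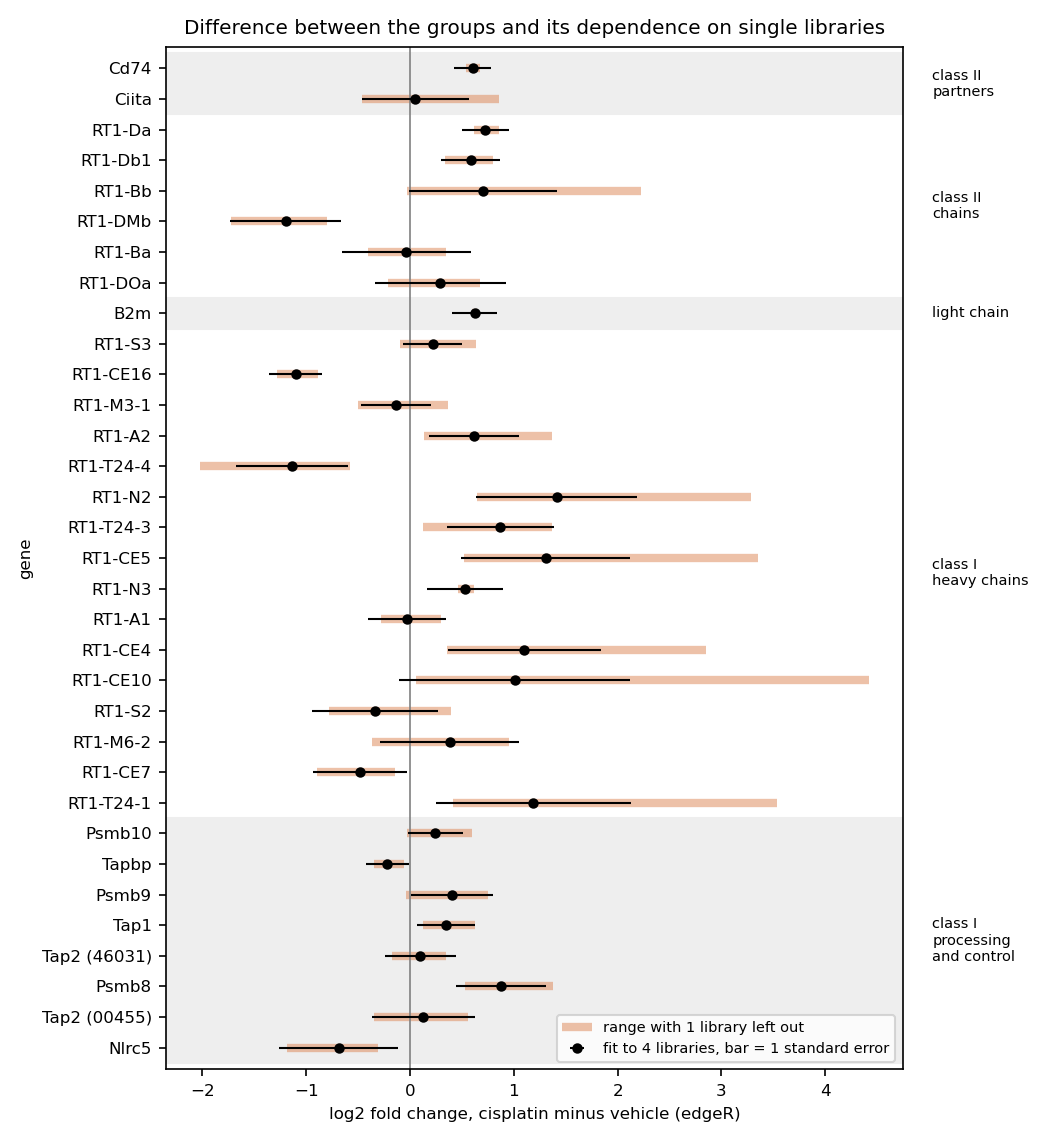
Log2 fold change (cisplatin minus vehicle, edgeR) of the 33 members tested, with black points and bars for the fitted value ± 1 SE and orange bands for the range with 1 library left out. B2m and Cd74 have the narrowest bands above 0, RT1-CE16 stays below 0, and RT1-CE10, RT1-T24-1, RT1-CE5 and RT1-N2 have bands that extend past 3.

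The surrounding pathway was read from lists. No gene of these lists was called by edgeR. Over all genes tested, 20.6% were above and 21.2% below in both cisplatin-treated libraries. These shares are the background for the list counts here and for the marker lists below. Of 8 endosomal processing genes tested, Ctsz, Ctsl and Ctsd (cathepsins) were above in both cisplatin-treated libraries, and the median log2 fold change was 0.31. Of 6 tested genes of the proteasome activator and the constitutive subunits, 4 were above (Psmb5, Psmb6, Psmb7 and Psme2) and the median was 0.26. Of 7 peptide-loading partners 1 was above (Sec61a1), with a median of -0.01.

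Among 8 tested factors that bind MHC promoters, Nfyc (0.69 ± 0.25, SE) and Rfxap (0.80 ± 0.48, SE) were above and Creb1 (-0.67 ± 0.36, SE) was below in both cisplatin-treated libraries, with a median of -0.02 on the log2 scale. Among 11 tested genes of interferon-gamma signalling, Ifngr2 and Irf1 were above and Jak2 was below, with a median of 0.03. Ifng, the cytokine itself, was at 0 in all libraries, which allows up to 3 counts in each. Among 5 tested costimulation and checkpoint genes Cd40 was below, with -0.92 ± 0.48 (SE). None of 5 tested CD1-related genes separated the groups.

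Markers of cells that carry class II were measured beside it. The 14 macrophage markers summed to 86.4 and 100.7 CPM after vehicle and to 99.7 and 110.2 CPM after cisplatin, so the sums overlapped. Of the 14 genes, 6 were above (among them Cd68, C1qc and Fcer1g) and 4 were below (Cd163, Adgre1, Aif1 and Ptprc). The 9 dendritic cell markers summed to 36.5 and 33.9 CPM after vehicle and to 30.5 and 29.0 CPM after cisplatin, so both cisplatin-treated sums lay below both vehicle-treated sums, the opposite order to class II. No dendritic cell marker was above and 3 were below, of which Zbtb46 (-0.62) and Clec10a (-0.27 on the log2 scale) were tested, and Cd209a was at 0 everywhere. The 5 B cell markers summed to 7.75 and 4.27 CPM after vehicle and to 11.2 and 8.54 CPM after cisplatin, with Pax5 and Cd79b above in both. The 9 T cell and NK cell markers summed to 6.79 and 11.5 CPM after vehicle and to 7.36 and 10.1 CPM after cisplatin, with Nkg7 above. The part of these cells in the levels of Cd74, RT1-Da and RT1-Db1 was not tested.

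Markers of the other cells of the ganglion were read beside the members. The sums of the sensory neuron, satellite glia and endothelial lists each overlapped between the groups. The background for the counts of single genes is again 20.6% above and 21.2% below. All 12 sensory neuron markers had counts, 11 of 12 had a log2 fold change above 0, and Uchl1 (0.77), Tubb3 (0.47) and Isl1 (0.42) were above in both cisplatin-treated libraries with none below. Of 6 satellite glia markers Kcnj10 (-1.11) was below. Of 4 endothelial markers tested Kdr (-0.51) and Flt1 (-0.39) were below. With the gene length offset Uchl1 was at 0.57, Tubb3 at 0.40, Isl1 at 0.43, Kcnj10 at -1.25, Kdr at -0.25 and Flt1 at -0.09.

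The 8 fibroblast and meningeal markers summed to 9055 and 12352 CPM after vehicle and to 4697 and 9162 CPM after cisplatin, overlapping sums with a ratio of means of 0.647. Among them 3 were below, including Col1a2 (-1.59) and Col1a1 (-0.74), and 2 were above, including Ptgds (2.07 ± 0.21, SE). DESeq2 called Ptgds (adjusted p = 2.3e-13) and Col1a2 (adjusted p = 0.0064). The edgeR test called neither (adjusted p = 0.287 and 0.522). The part of these cells in the values of the MHC genes was not tested.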

How the data were processed

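Polyadenylated RNA of lumbar DRGs was sequenced, with 2 libraries after vehicle and 2 after cisplatin. The authors mapped reads with HISAT2 to Ensembl Rnor_6.0, and the submitters' processing notes name HISAT2 2.0.5, StringTie 1.3.3b and featureCounts 1.5.0-p3. They deposited raw counts per gene and FPKM values for each library. Strand and multi-mapping settings are not given in the sources used here. Whether replicates are separate litters is not stated, so p-values measure the spread between these samples.

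Groups came from the labels. Counts of protein-coding genes were filtered with filterByExpr (14719 of 22293 kept), scaled by TMM (factors 1.10, 0.941, 1.03 and 0.938) then tested by quasi-likelihood in edgeR 4.0.16 (glmQLFit, glmQLFTest, R 4.3.3) across all genes. A call required a fold of 1.5 or more together with a p, adjusted by Benjamini-Hochberg, under 0.05. SEs were derived from the fold change and the F statistic. The floor of 3 counts covers counting error alone, because PCR duplicates cannot be recognised without molecular identifiers.

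Alternatives were DESeq2 1.42.0, other scalings and filters, all biotypes, limma 3.58.1 on log2(FPKM + 1) and log2(FPKM + 0.1), which understates the change of low genes, a lowess offset for gene length (span 0.3), a replicate block and leaving out each library. Motifs were searched in the 250 bases before each RefSeq (GRCr8) start, a build other than that of the tables. All members passing the filter are named, as are up to 3 genes of each other list with separate groups and the largest changes. Psmb7, Ifng, Cd209a, Cd163, Adgre1, Aif1, Ptprc and the genes overlapping members were chosen after their values were seen. Schwann cell markers are not reported here. Members and lists were chosen with earlier results of these data known.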

Additional observations from a re-analysis of the deposited data

How the results depend on the processing

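With 2 libraries per group and under 20 counts per library for several members, small differences were not detectable. Of the 33 members tested, 20 kept their direction under every alternative run (14 higher, 6 lower after cisplatin), and the cause of the shifts was not tested.

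Over all genes the calls higher and lower were 0 and 1. They became 2 and 2 without the filter, 45 and 81 with DESeq2, 2 and 2 for log2(FPKM + 1), and 407 (2.77%) and 763 (5.18%) by unadjusted edgeR p with the fold of 1.5. At least 10 counts in every library and log2(FPKM + 0.1) each gave 1 higher. Leaving out 1 library gave 0 to 4 higher and 0 to 3 lower. Among members the unadjusted p gave 3 higher and 1 lower, and leaving out any library gave 0.

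The rat numbers in the titles mark different rats, so the libraries share only a number, although numbers deviated together (Pearson r = 0.515, Spearman rho = 0.594 over 14719 genes). The replicate block called 494 genes higher (3.36%) and 1038 lower (7.05%), 4 of them members higher (B2m, Cd74, RT1-Da and RT1-N2) and 1 lower (RT1-CE16). With the gene length offset as well, the block called 263 higher (1.79%) and 749 lower (5.09%), 2 of them members higher (RT1-CE4 and RT1-Da) and 1 lower (RT1-CE16).

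The class II median log2 fold change (0.44) was 0.59 for genes of 10 or more counts in every library, 0.53 by DESeq2, 0.22 for log2(FPKM + 1), and 0.29 (without cisplatin replicate 1) to 0.60 with 1 library left out. The class I median (0.53) was 0.21 without the filter, 0.22 by DESeq2, 0.29 for log2(FPKM + 1), and 0.21 (without cisplatin replicate 2) to 0.60 with 1 library left out. The medians by DESeq2 and without the filter were taken over all members with any count. These were 11 for class II and 23 for class I, against 8 and 17 tested. The part of this change of genes in the shift of the medians was not tested. The processing and control median (0.19) ran from -0.079 (without cisplatin replicate 2) to 0.44 (without vehicle replicate 2). Members with separate groups numbered 13 to 19 above and 5 to 10 below with 1 library left out, which leaves fewer comparisons to meet. The share of all genes tested that separates with 1 library left out is not given here. Without that background these counts cannot be read as a property of the members. Members with separate groups have no value under DESeq2, the block or the length offset.

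RT1-A1 turned to 0.011 with the length offset and 0.027 with the block and offset. When single libraries were omitted, log2 fold changes ran from -0.10 to 0.63 for RT1-S3, -0.50 to 0.36 for RT1-M3-1, -0.28 to 0.30 for RT1-A1, -0.79 to 0.39 for RT1-S2, -0.37 to 0.95 for RT1-M6-2, -0.033 to 0.60 for Psmb10, -0.035 to 0.75 for Psmb9, -0.17 to 0.35 and -0.35 to 0.56 for the Tap2 entries, -0.025 to 2.23 for RT1-Bb, -0.40 to 0.35 for RT1-Ba, -0.21 to 0.67 for RT1-DOa and -0.46 to 0.86 for Ciita.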

Other observations

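RT1 genes of other biotypes lay outside the comparison. The pseudogene RT1-O1 had 8 and 3 counts after vehicle and 17 and 5 after cisplatin, and the other RT1 rows that are not protein-coding had at most 5 counts in any library.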
